A study of Mus musculus with 2 samples.

Results

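The genes described here encode proteins of mitosis, the spindle and the kinetochore. Skin of newborn keratin 5 knockout mice (ko_skin, K5-/-) was compared with skin of newborn wildtype mice (wt_skin). A list of 50 genes was set by name, and a gene was taken as present when at least 1 probe set of the array carried its symbol and no other. Of the 50, 43 were found in this way among 8251 genes of the array, with 57 probe sets, and 7 were absent from the annotation (Bub1b, Ccnb1, Cenpf, Tpx2, Cdc25b, Hmmr and Espl1). Keratin 5 is the type II keratin of basal keratinocytes, and its loss is a mouse model of epidermolysis bullosa simplex, a blistering disorder. Each group was a pool of total RNA from the skin of 6 newborns, taken immediately after birth, and each pool was read on 1 array. The source name in the labels is epidermis, but the protocol describes skin, with no separation of layers. Strain and sex are not named in the labels.

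With 1 array per group there are no replicates and no test, so each comparison below is between these 2 arrays. Values are MAS5 signals, in which the probes of a probe set are combined into 1 intensity on a linear scale. Signals under 246.7 units, the 40th percentile of all values, were raised to that floor before ratios were taken. A gene was called measured when 1 or both of its signals exceeded the floor, which held for 5976 genes of the array and 40 of the 43 members. Of these 40, 39 exceeded it on both arrays and 1, Trip13, on the wild type array only, so that its ratio is a bound. The other 3 members have no ratio: Kifc1 read 89.8 in ko_skin and 122.9 in wt_skin, Cenpe 42.5 and 6.5, and Cit 14.7 and 50.7. Probe sets bind with different strength, so signals are compared between the arrays and never between genes.

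A cell enters mitosis when the kinase CDK1, bound to cyclin A or B, becomes active. Condensin compacts the chromosomes, kinesins and microtubule-associated proteins build the spindle, and kinetochores attach chromosomes to it. The spindle assembly checkpoint holds back the anaphase-promoting complex until every kinetochore is attached, after which cohesin is cleaved and the cell divides. Most of these transcripts accumulate in G2 and mitosis, and in skin the dividing cells lie mainly in the basal layer and in the hair follicle. In pooled tissue, fewer dividing cells and less RNA per dividing cell cannot be told apart.

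Nearly the whole set was lower in knockout skin. Of 40 measured members, 38 had a lower signal in the knockout and 2 (Foxm1 and Mki67) a higher one, while 46.1% of all measured genes were lower. The median log2 ratio of knockout over wild type was -0.45 over the members, with quartiles of -0.83 and -0.20, and 0.04 over all measured genes, with quartiles of -0.21 and 0.28. At least 1.5-fold lower were 15 members, against 5.27% of all measured genes. At least 2-fold lower were 5 members (Pmf1, Cks2, Mad2l1, Smc2 and Trip13), against 0.703% of all measured genes, and these 5 made up 12.5% of the measured members and 11.9% of the 42 genes of the array that were at least 2-fold lower. Of these 5, Cks2 was beyond 2-fold in all 9 settings tried; with a pseudocount equal to the floor Cks2 and Pmf1 were, and under a floor at the 60th percentile Cks2, Mad2l1 and Smc2 were. No member was at least 1.5-fold higher, whereas 7.63% of all measured genes were. With quantile normalization the array had 79 genes at least 2-fold higher and 58 lower, in place of 92 and 42, and 6 members were then among the lower genes.

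Technical error could be gauged only from genes with more than 1 probe set. In the 838 genes where 2 or more exceeded the floor on each array, ratios of the same gene varied with a standard deviation of 0.30 (log2), a figure that contains no variation between animals or hybridisations. By more than this spread, 27 members were lower and 0 were higher, and 13 lay within it. Among all measured genes 18.1% were lower by more than the spread, 23.6% were higher by more than it and 58.3% lay within it. The 13 within it were Ccnf, Foxm1, Kif11, Kif2c, Kif22, Prc1, Racgap1, Cenpa, Smc4, Mki67, Pttg1, Rad21 and Ube2c.

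**Figure D1:**
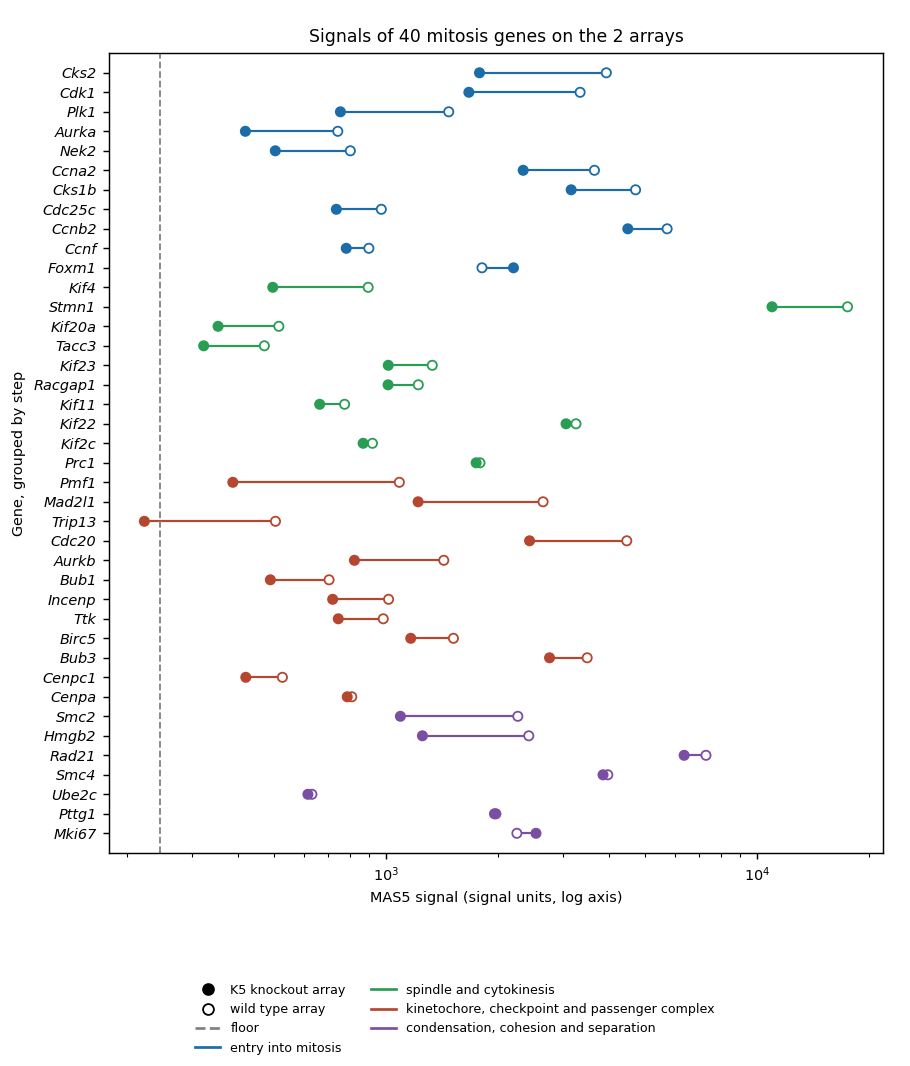
MAS5 signal (log axis) of each of the 40 measured members on the K5 knockout array (filled circles) and the wild type array (open circles), grouped by step, with the floor of 246.7 units as a dashed line. The filled circle lies to the left of the open one for 38 genes and to its right for Foxm1 and Mki67, and only Trip13 crosses the floor.

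**Figure D2:**
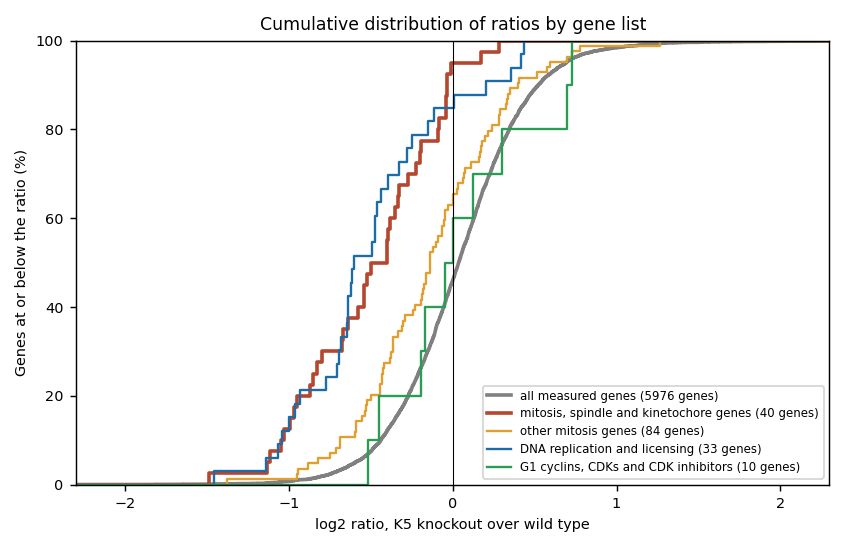
Cumulative share of genes (percent) against the log2 ratio of K5 knockout over wild type for all 5976 measured genes, the 40 measured mitosis members, 84 other mitosis genes, 33 DNA replication genes and 10 G1 regulators. From the lowest member ratio, -1.49, upward, the curve of the members lies to the left of that of all genes, with medians of -0.45 and 0.04.

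Many mitotic promoters share a pair of short elements. Both were taken from textbook knowledge of such promoters, and their part in the lower signals was not tested. The cell cycle genes homology region (CHR) is bound by the MuvB complex, which represses with p130 and activates with B-Myb and FoxM1, and the CCAAT box is bound by NF-Y. RefSeq promoter windows (GRCm38.p6, 250 bases before to 50 after the start site) were found by symbol for 40 of the 50 listed genes. They were searched on both strands for TTTGAA or TTCGAA as the CHR and for CCAAT, and neither motif contains the other. A CHR match lay in the windows of 30 of these 40 genes (75%), against 21.7% of 27025 genes with a window. A CCAAT match lay in 33 (82.5%) against 41.1%, at least 2 CCAAT matches in 21 (52.5%) against 13.3%, and both elements in 28 (70%) against 9.65%. Among 36 DNA replication genes, 7 (19.4%) held a CHR match and 21 (58.3%) a CCAAT match. These are matches of letters and not tested sites.

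Stretches from 200 bases before to 30 after the start site are printed for 7 members, 5′ to 3′ on the gene's strand, with CHR and CCAAT matches of either strand in capitals. Cdk1, Cdc20, Cks1b and Hmgb2 were chosen as members lower in the knockout with both elements. Cks2 and Mad2l1 are 2 of the lowest members and lack a CHR match, whereas Pmf1, Smc2 and Trip13, also at least 2-fold lower, have a CHR match. Mki67 has both elements but was not lower.
Cdk1, chr10:69352883-69353112, minus strand: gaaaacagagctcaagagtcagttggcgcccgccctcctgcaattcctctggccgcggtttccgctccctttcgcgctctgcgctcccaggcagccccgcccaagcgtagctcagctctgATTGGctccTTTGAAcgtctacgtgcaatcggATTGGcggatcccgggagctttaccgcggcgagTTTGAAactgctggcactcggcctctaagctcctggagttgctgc
Cdc20, chr4:118437314-118437543, minus strand: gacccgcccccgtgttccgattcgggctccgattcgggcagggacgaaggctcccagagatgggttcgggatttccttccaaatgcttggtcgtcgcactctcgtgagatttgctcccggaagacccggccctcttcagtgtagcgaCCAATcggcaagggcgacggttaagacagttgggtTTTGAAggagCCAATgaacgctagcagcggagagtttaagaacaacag
Cks1b, chr3:89418262-89418491, minus strand: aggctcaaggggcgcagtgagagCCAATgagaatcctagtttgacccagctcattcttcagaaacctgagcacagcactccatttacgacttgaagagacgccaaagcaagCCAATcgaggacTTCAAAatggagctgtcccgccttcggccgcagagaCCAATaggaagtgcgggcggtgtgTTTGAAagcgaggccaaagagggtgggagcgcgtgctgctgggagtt
Hmgb2, chr8:57511643-57511872, plus strand: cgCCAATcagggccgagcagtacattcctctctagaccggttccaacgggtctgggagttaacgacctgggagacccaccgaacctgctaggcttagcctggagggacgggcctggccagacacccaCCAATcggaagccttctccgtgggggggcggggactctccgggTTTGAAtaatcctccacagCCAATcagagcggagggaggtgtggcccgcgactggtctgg
Cks2, chr13:51645032-51645261, plus strand: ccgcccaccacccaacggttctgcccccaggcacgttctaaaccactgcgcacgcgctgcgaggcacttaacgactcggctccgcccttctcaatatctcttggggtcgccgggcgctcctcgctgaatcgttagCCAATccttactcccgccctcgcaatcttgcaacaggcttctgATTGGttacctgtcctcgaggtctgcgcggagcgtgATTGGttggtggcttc
Mki67, chr7:135716350-135716579, minus strand: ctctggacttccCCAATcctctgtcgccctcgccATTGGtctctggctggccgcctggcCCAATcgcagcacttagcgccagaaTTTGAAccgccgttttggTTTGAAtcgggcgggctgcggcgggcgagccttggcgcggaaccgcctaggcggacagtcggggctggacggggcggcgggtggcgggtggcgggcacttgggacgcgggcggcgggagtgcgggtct
Mad2l1, chr6:66535021-66535250, plus strand: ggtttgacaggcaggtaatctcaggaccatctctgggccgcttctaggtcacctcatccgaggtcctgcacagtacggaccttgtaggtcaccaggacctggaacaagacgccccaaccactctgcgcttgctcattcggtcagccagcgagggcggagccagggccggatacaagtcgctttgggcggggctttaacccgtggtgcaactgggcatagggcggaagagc

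Within the printed stretch of Cdk1 the CHR matches began 71 and 15 bases before the start site and CCAAT matches 80 and 48 bases before it. In Cdc20 a CHR match began 18 bases before the start and lay between CCAAT matches at 53 and 8 bases. In Hmgb2 a CHR match began 30 bases before the start, with CCAAT matches on both sides, at 73 and 11 bases, and a second CHR match at 218 bases lay outside the printed stretch. Cks1b held CHR matches at 77 and 17 bases, whereas its paralogue Cks2 held CCAAT matches only, of which those before the start lay at 65 and 22 bases. In Mki67 the CHR matches began 116 and 98 bases before the start. Mad2l1 held neither element in its window.

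Members with the elements did not have the lower medians. The 24 measured members with a CHR match had a median log2 ratio of -0.40 and the 7 without one -0.54, and 23 of the 24 and 7 of the 7 were lower in the knockout. With a CCAAT match the median was -0.40 (25 members) and without one -0.46 (6 members). Over the array, the 401 measured genes with both elements had a median log2 ratio of -0.01 and the 4426 others with a window 0.03. No test was run on these medians.

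The regulators of entry into mitosis had a median log2 ratio of -0.64, with 10 of 11 measured members lower and 6 at least 1.5-fold lower. Cdk1, the kinase that starts mitosis, read 1674 in ko_skin and 3338 in wt_skin. Its log2 ratio, -0.996, is just short of 2-fold. Its small adaptor subunits are encoded by Cks1b and Cks2. Cks2 read 1788 against 3928, 2.20-fold lower. Cks1b read 3158 against 4710.4, 1.49-fold lower. Both CKS adaptors were thus lower, with a difference of 1.14 log2 units for Cks2 and 0.58 for Cks1b.

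The measured cyclins had log2 ratios from -0.64 to -0.20. Ccna2, the S and G2 phase cyclin, read 2345 against 3649, 1.56-fold lower. Ccnb2, a mitotic B cyclin, read 4488 against 5729, 1.28-fold lower. Ccnf, which encodes an F-box protein of a ubiquitin ligase, read 782 against 899.7, 1.15-fold lower and within the spread between probe sets. Ccnb1 was among the members absent from the annotation.

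The other kinases of mitotic entry had log2 ratios from -0.97 to -0.67. Plk1, the polo kinase of spindle poles and kinetochores, read 754 against 1477, 1.96-fold lower. Aurka, the kinase of centrosome maturation, read 418 against 742, 1.77-fold lower. Nek2, which separates the centrosomes, read 503 against 802, 1.59-fold lower. All 3 kinases were at least 1.5-fold lower, but Aurka and Nek2 are dim. With a higher floor, at the 60th percentile (659.7 units), their log2 ratios were -0.17 and -0.28, which are bounds. Cdc25c, the phosphatase that activates CDK1, read 735 against 972, 1.32-fold lower.

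Foxm1, the transcription factor of G2 and mitosis genes, had no settled direction. Its brighter probe set read 2208 in ko_skin and 1816 in wt_skin, a log2 ratio of 0.28. Its other probe set read 303 against 904.5, a log2 ratio of -1.58. The brighter one carries the suffix _g_at, which marks a probe set that shares probes with others. The plain probe set alone placed Foxm1 at -1.58 and the mean of both at -0.65.

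Spindle and cytokinesis genes were all lower where measured, 10 of 10, with a median log2 ratio of -0.33, and 2 of them at least 1.5-fold lower. Kif4, a chromokinesin, had the lowest ratio of the group and read 496 against 896, 1.81-fold lower. Under the higher floor its log2 ratio was a bound of -0.44. Stmn1 encodes stathmin, which destabilises microtubules, and read 10986 against 17554, 1.60-fold lower. Stmn1 kept a log2 ratio between -0.68 and -0.60 over all settings tried.

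The kinesins of the list differed in size. Of 6 measured, Kif20a, a motor of the central spindle, came after Kif4, with a log2 ratio of -0.54 (353 against 515). Kif23, the motor subunit of centralspindlin, read 1015 against 1334 and its partner gene Racgap1 1013 against 1223, with log2 ratios of -0.39 and -0.27. Kif11, the motor that pushes spindle poles apart, had a log2 ratio of -0.22 (663 against 774). Kif22, a chromokinesin, read 3059 against 3254, Kif2c, a microtubule depolymerase of the centromere, 868 against 920.0, and the log2 ratios were -0.09 and -0.08. Kif11, Kif22, Kif2c and Racgap1 thus lay within the spread between probe sets. Prc1, which bundles the midzone microtubules, was nearly equal on both arrays (1751 against 1793, log2 ratio -0.03). Tacc3, which stabilises kinetochore fibres, was dim and had a log2 ratio of -0.54 (323 against 470.3).

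Kinetochore, checkpoint and passenger complex genes held 3 of the 5 members that were at least 2-fold lower. All 12 measured members were lower, 5 of them at least 1.5-fold, and the median log2 ratio was -0.51. Pmf1, a subunit of the MIS12 complex of the kinetochore, read 387 in ko_skin and 1087 in wt_skin, 2.81-fold lower, the lowest ratio of the members in the main setting. Its value depended on the low knockout signal and became a bound of -0.72 under the higher floor, where Cks2 was lowest, at -1.14. With plain probe sets only Foxm1 was lowest, at -1.58. Mad2l1, which encodes the checkpoint protein MAD2, read 1221 against 2652.5, 2.17-fold lower. Its log2 ratio ranged from -1.13 to -0.98 over the settings. Trip13, the ATPase that remodels MAD2, read 223 against 504, at least 2.04-fold lower since the knockout signal was under the floor.

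Cdc20, the activator of the anaphase-promoting complex that MAD2 holds in check, read 2439 against 4460.0, 1.83-fold lower. Bub1, a checkpoint kinase, read 488 against 703, a log2 ratio of -0.53. Ttk, the kinase MPS1, read 744 against 984, and Bub3, the partner of Bub1, 2761 against 3488, with log2 ratios of -0.40 and -0.34. Within the checkpoint, MAD2, its remodeller and its target thus had the larger differences, and the Bub and Ttk genes the smaller ones. No test of that contrast was possible.

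The chromosomal passenger complex joins the kinase Aurora B to INCENP and survivin. Aurkb read 823 against 1432, 1.74-fold lower. Incenp read 719 against 1017 and Birc5, which encodes survivin, 1167 against 1521, with log2 ratios of -0.50 and -0.38. All 3 subunits were lower by more than the spread between probe sets, except that the dimmer probe set of Incenp, at -0.13, lay within it. Of the structural centromere genes in the set, Cenpa, the centromeric histone, was near even, at a log2 ratio of -0.04 (787 against 809). Cenpc1 was lower by more than the spread, at -0.33 (419 against 526).

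The group for condensation, cohesion and separation was divided, with a median log2 ratio of -0.04 over 7 members. Smc2, a core subunit of condensin, read 1094 against 2268, 2.07-fold lower. Smc4, its partner in the same heterodimer, read 3848 against 3964, a log2 ratio of -0.04 that became 0.05 with quantile normalization. Of this heterodimer 1 subunit was thus beyond 2-fold and the other nearly level. Hmgb2, a chromatin protein abundant in dividing cells, read 1254 against 2428, 1.94-fold lower. This probe set is the only one for Hmgb2 and carries the suffix _r_at, given where the design rules could not all be met. Ube2c and Kif22 likewise rest on a single _r_at probe set, and the measured probe set of Pttg1 carries the suffix _s_at. None of these genes had a ratio with plain probe sets only.

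The remaining members of that group were nearly level. Rad21, the cohesin subunit cleaved at anaphase, read 6367 against 7290.3, a log2 ratio of -0.20. Pttg1, which encodes securin, read 1962 against 1979, and Ube2c, the ubiquitin-conjugating enzyme of the anaphase-promoting complex, 616 against 632. Both had log2 ratios between -0.04 and -0.01. Mki67, the gene of the proliferation marker Ki-67, read 2539 against 2255, a log2 ratio of 0.17 that stayed between 0.16 and 0.18 over the settings. Its second probe set, at the floor on both arrays, read 186 against 90.1.

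**Figure D3:**
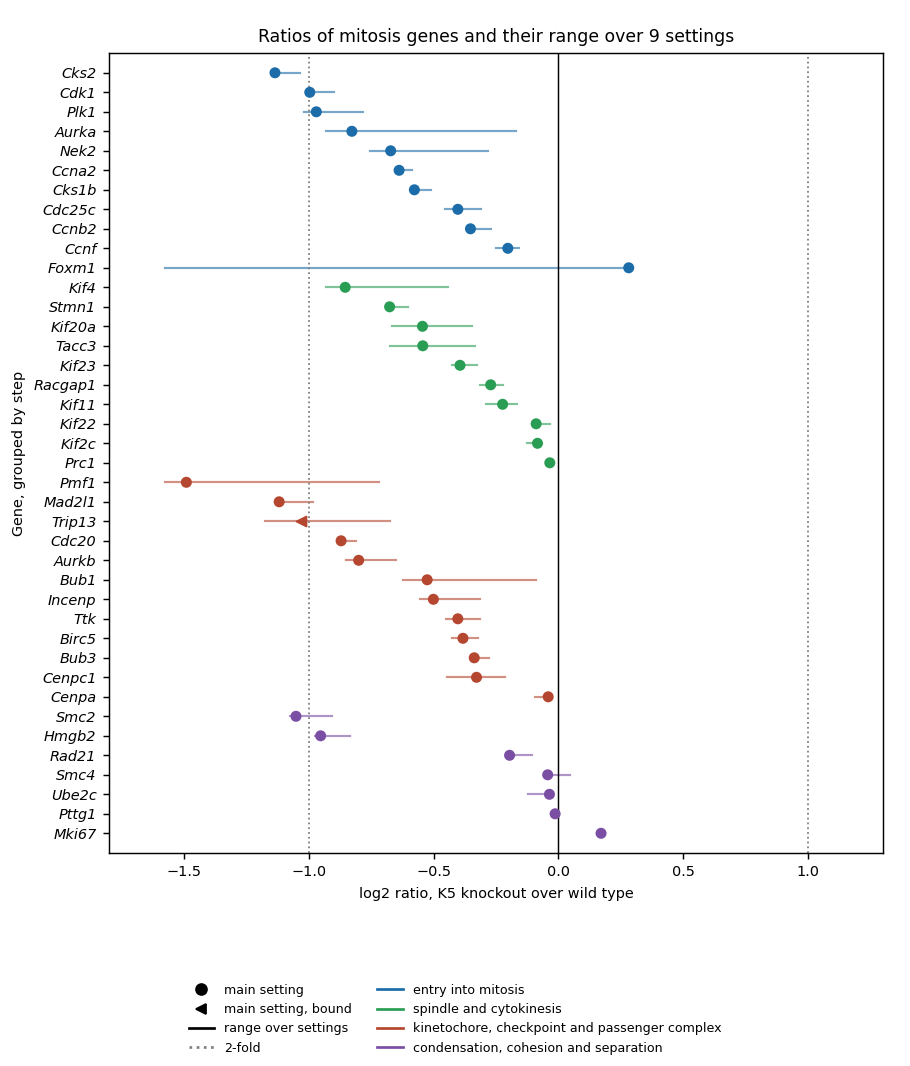
Log2 ratio of K5 knockout over wild type for the 40 measured members, grouped by step, with the main setting as a circle (a triangle for the bound of Trip13) and the range over 9 settings, the main one included, as a line; dotted lines mark 2-fold. Foxm1 has the widest range, from -1.58 to 0.28, and Cks2 is beyond 2-fold over its whole range.

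Members with several probe sets allowed a check within the arrays. Of 12 such genes, 5 had at least 2 measured probe sets, and in 4 of these all measured probe sets were lower in the knockout. Plk1 had 3, at log2 ratios of -0.97, -0.69 and a bound of -1.32. Cdc25c had 2, at -0.40 and -0.43, and Kif20a 2, at -0.54 and -0.52. For Incenp the ratios were -0.50 and -0.13. The exception was Foxm1. Counting probe sets in place of genes, 44 of 46 measured ones were lower. All probe sets of Plk1 carry a letter suffix, _g_at or _f_at, so Plk1 had no ratio with plain probe sets only. Cdc25c and Kif20a each paired a plain probe set with a suffixed one, and both probe sets of Incenp were plain.

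**Figure D4:**
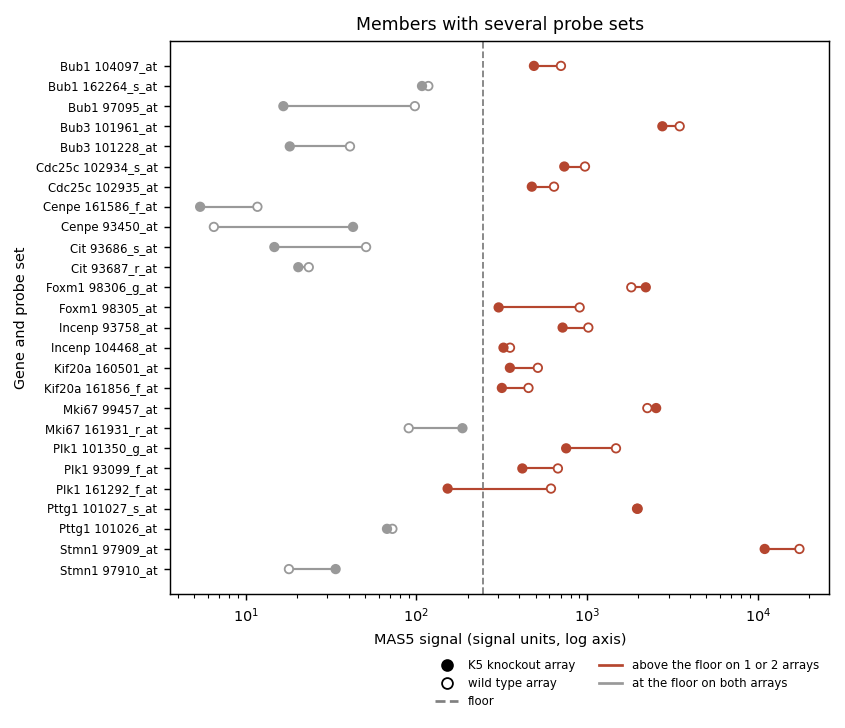
MAS5 signal (log axis) on the K5 knockout array (filled) and the wild type array (open) for each probe set of the 12 members with several probe sets, with the floor as a dashed line and grey for probe sets at the floor on both arrays. The 3 probe sets of Plk1 are each lower in the knockout, while those of Foxm1 point in opposite directions.

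Mitosis genes outside the set lay on both sides of 0, with more of them lower than higher. Of 150 further symbols listed, some of them older and newer names of 1 gene, 94 were on the array and 84 measured. Of these, 54 (64.3%) were lower and 30 higher, against 46.1% lower among all measured genes, and the median log2 ratio was -0.14. At least 1.5-fold lower were 12, against 5.27% of all measured genes, and at least 1.5-fold higher were 5, against 7.63%. The 9 measured subunits of the anaphase-promoting complex had a median of 0.00, from Anapc13 (-0.38), Anapc11 (-0.31) and Cdc26 (-0.09) to Anapc4 (0.17), Cdc16 (0.34) and Cdc23 (0.73). Thus the activator Cdc20 was lower beside a complex whose subunits lay on both sides of 0.

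Of 8 other cohesin and condensin genes, 3 were lower. The condensin subunit gene Ncaph was at -0.83, Cdca5, which encodes the cohesin protector sororin, at -0.45 and the topoisomerase gene Top2a at -0.42. The cohesin genes Smc3, Nipbl and Stag1 were at 0.33, 0.24 and 0.18. Other kinetochore genes with both signals over the floor were Cenpk (-0.95), the passenger complex gene Cdca8 (-0.44), Cenpb (-0.37) and Zwint (0.16), and 4 of 6 measured were lower. Among 14 other kinases and phosphatases, 10 were lower. Wee1, the inhibitory kinase of CDK1, was at -0.95, the centriole kinase Plk4 at -0.75 and the phosphatase gene Ppp2ca at -0.69. Cdc25a, Mnat1 and Lats2 were the highest of them above the floor on both arrays, at 0.40, 0.35 and 0.11.

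Of 34 other spindle, centrosome and cytokinesis genes, 24 were lower, with a median of -0.14. Nusap1, a spindle-associated protein gene, was at -0.71, the centrin gene Cetn2 at -0.60 and Tubb6 at -0.59, while Kif1b, a kinesin of organelle transport, was at 1.26, the importin gene Kpnb1 at 0.51 and Ckap5 at 0.33. Of 13 regulators that act on the promoter elements described above or on E2F sites, 9 were lower, with a median of -0.16. E2f8, a repressor of the E2F family, was 2.61-fold lower (419 against 1093), at least 1.66-fold lower under the higher floor and 2.12-fold lower as the mean over probe sets. Mybl2, which encodes B-Myb, was at -0.89 (305 against 564) and at -0.30 as the mean over probe sets, so its probe sets differed. Mybl2 had no ratio under the higher floor, and E2f8 had none with plain probe sets only. The MuvB subunit gene Rbbp4 was at -0.59. The highest were Nfya (0.69), Rb1 (0.57) and E2f5 (0.29). Nfya encodes a subunit of NF-Y, and the other subunit genes, Nfyb and Nfyc, were at -0.54 and -0.34.

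Genes of the neighbouring cell cycle phases are given for comparison, with no test of a difference. Of 33 measured DNA replication and licensing genes, 28 were lower, with a median log2 ratio of -0.60, and 5 were at least 2-fold lower. Of 10 measured G1 cyclins, CDKs and CDK inhibitors, 5 were lower, with a median of -0.02. Among all measured genes 46.1% were lower and 0.703% were at least 2-fold lower.

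**Figure D5:**
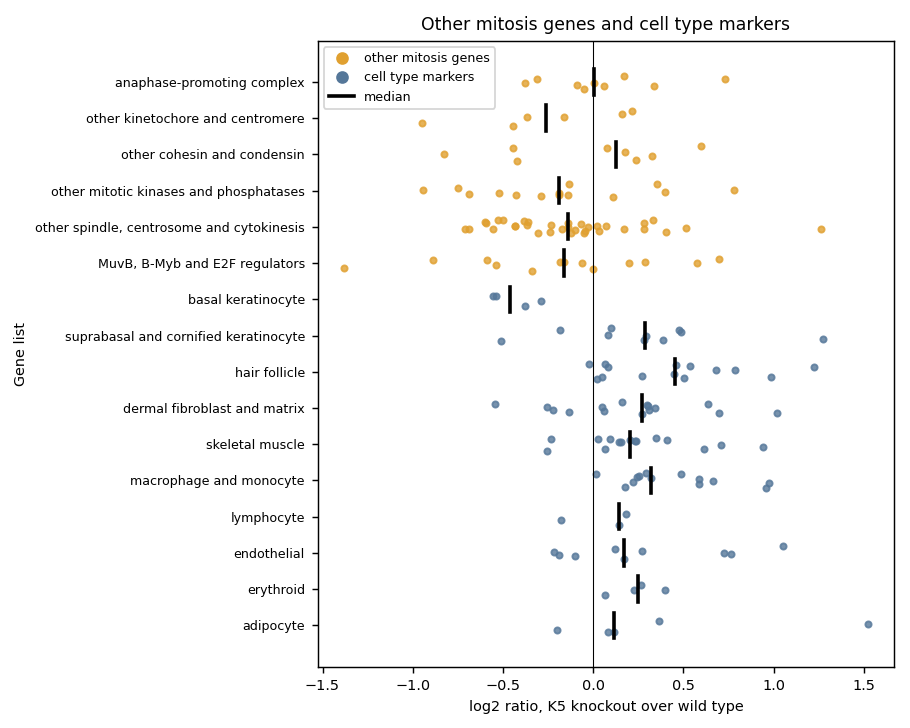
Log2 ratio of K5 knockout over wild type for each measured gene of 6 lists of other mitosis genes (yellow) and 10 lists of cell type markers (blue), with the median of each list as a black bar. The basal keratinocyte markers have a median of -0.46, and every other marker list has a median above 0.

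The markers of the tissue moved with the mitosis genes in part. The basal keratins Krt5, Krt14 and Krt15, the targeted gene included, did not exceed the floor, and neither the deletion nor the amount of basal keratin could be read. The other basal keratinocyte markers, 4 measured of 8 listed, were all lower: Itgb4 at -0.56, Trp63 at -0.54, Itga6 at -0.38 and Col17a1 at -0.29. Their summed signal was 7221 in ko_skin and 9857 in wt_skin. Suprabasal and cornified markers were higher in 8 of 10 (summed signal 223119 against 189860), hair follicle markers in 13 of 14 (23628 against 17306) and macrophage markers in 13 of 13 (20154 against 14863). Endothelial markers were higher in 6 of 9, adipocyte markers in 4 of 5 and erythroid markers in 4 of 4. Among all measured genes 53.9% were higher in the knockout. Dermal markers were higher in 11 of 15 (260732 against 234414) and muscle markers in 13 of 15 (115869 against 100388). Of the lymphocyte markers, Cd3e, Cd3d, Cd3g, Cd8a, Cd8b1, Cd79b and Ptprc were at the floor on both arrays. The summed signal of the mitosis members was 69237 against 96793. In each sum the brightest probe sets weigh most. The part of these markers in the lower mitosis signals was not tested.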

How the data were processed

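RNA of 6 newborns per genotype was pooled and read on 1 array per pool. The deposited values are intensities, 1 MAS5 signal per probe set, per the submitters' processing notes. The version of MAS5, its scaling target and any detection calls are not given in the sources used here. In all, the table holds 12488 probe sets, 66 of them controls, which were left out. The platform annotation gives 1 symbol for 10833 of the others, several for 396 and none for 1193, and genes were named from single-symbol probe sets only. Each array was scaled to 1 common 2% trimmed mean (factors 1.0001 and 0.9999), values under the 40th percentile were raised to it, and log2 ratios were taken. A gene was represented by its probe set with the highest mean.

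Results are values, counts at 1.5-fold and 2-fold, and medians, because 1 array per group allows no test, and this number limits all precision. The named members are all 50, and of each list of other mitosis genes the 3 lowest and 3 highest above the floor on both arrays. Nfyb and Nfyc, named besides, were chosen after their values were seen. Members and lists were chosen with earlier results of these data known, so the direction of the set is not independent evidence. The calculation was tested on simulated data with changes placed in bright genes only, so changes in dim genes near the floor were not tested. Python 3.11.15, numpy 2.4.6, scipy 1.17.1 and statsmodels 0.14.6 were used. There were 8 alternatives: floors at the 25th and 60th percentiles, a pseudocount equal to the floor, quantile normalization, a lowess correction, the mean over probe sets, plain probe sets only (no letter suffix), and genes above the floor on both arrays only. Symbols were matched to RefSeq promoter windows of GRCm38.p6, where a gene with several windows counted once.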

Additional observations from a re-analysis of the deposited data

How the results depend on the processing

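The median of the members was negative in the main setting and under all 8 alternatives, as were those of the 4 steps and of the other mitosis genes, with 1 array per group in each. The median of the members was -0.38 under a floor at the 60th percentile, -0.33 with the pseudocount, -0.53 with plain probe sets only and -0.40 with genes above the floor on both arrays only. For entry into mitosis it was -0.40 under the higher floor and -0.54 with the pseudocount, for the kinetochore group -0.38 with the pseudocount, and for the other mitosis genes -0.0944 with plain probe sets. Members at least 2-fold lower numbered 3 under the higher floor and 2 with the pseudocount, and 1 member was higher with the mean over probe sets and with plain probe sets. A higher floor and a pseudocount pull dim genes towards 0 by construction. With genes above the floor on both arrays only, Trip13 alone was left out of the measured members. With plain probe sets only, Plk1, Kif22, Hmgb2, Pttg1 and Ube2c were left out, and Foxm1 moved to -1.58 and Cdc25c to -0.43. The mean over probe sets took Foxm1 from 0.28 to -0.65. The cause of the shift in the other mitosis genes with plain probe sets was not tested. Of 40 measured members, 38 had the same sign in every setting that gave them a value, and Foxm1 and Smc4 did not. No paired analysis was possible because each group has 1 array, and no array could be left out for the same reason. Signals near the floor limit Pmf1, Aurka, Bub1, Nek2 and Kif4, and 5 members (Kif20a, Tacc3, Trip13, Cenpc1 and Ube2c) had no ratio under the higher floor. Of the other mitosis genes named, Cdc23, Ncaph, Cdca5, Stag1, Kif1b, Cetn2, E2f5 and Mybl2 had both signals under it. Cenpk exceeded the higher floor on the wild type array only.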

Other observations

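Tubulin genes of the spindle list above, picked out after their values were seen, lay on the same side as the mitosis genes. Of 9 listed, 8 were found on the array and 7 were measured. All 7 were lower in the knockout in the main setting, against 46.1% of all measured genes. Their median log2 ratio was -0.43. Under a floor at the 25th percentile, 7 of 8 were lower. Tuba1c read 23339 against 31511, Tubb5 14252 against 20551 and Tuba1a 14996 against 21190.1. Tubulin genes of 1 class are near-identical in sequence, so single values may mix paralogues.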
